A study of Mus musculus with 6 samples.

Results

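Trib1 and the stretch of chromosome 15 that follows it were examined for binding of thyroid hormone receptor TRb1 in mouse liver, without and with the hormone triiodothyronine (T3). The members are the peaks whose midpoint lies between 59.4 and 60.0 Mb of chromosome 15 on the mm9 build, which comes to 72 of the 98191 peaks in the deposited lists. This region was chosen on the measured values themselves, because the T3 list had many peaks there that the list without T3 lacked, so the excess of T3-only peaks is a description and no test was made of it. The gene body lies at about 59.48 to 59.49 Mb, rounded to 10 kb because no mm9 annotation was used here, and all distances from the gene carry that rounding.

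TRb1 is a nuclear receptor that sits on DNA with or without hormone. Without T3 it is known to recruit corepressors, and T3 binding switches it to coactivators. Trib1 encodes a pseudokinase, a kinase-like protein that works as a scaffold. It brings the ubiquitin ligase COP1 to C/EBP transcription factors, which are then degraded, and in liver it is known for its link to fat synthesis and plasma lipids. Enhancers of a gene can lie far outside the gene body, and the gene that a distant site acts on cannot be read from its position alone.

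All mice were heterozygous for the biotin ligase BirA, were 9 to 10 weeks old and ate a propylthiouracil (PTU) diet, which blocks thyroid hormone synthesis, for 3 weeks. They then received adenovirus through the tail vein and intraperitoneal injections for 4 days. The GFP PTU livers carried virus for GFP alone and were given saline, the TRb PTU livers carried virus for GFP and biotinylated TRb1 and were given saline, and the TRb T3 livers carried that same virus and were given T3. The receptor mapped is therefore a tagged one delivered by virus, captured on streptavidin. Each condition had 1 ChIP library. The labels do not give the number of animals per library, read depth is unknown, and no difference between conditions could be set against a spread between animals.

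Most binding sites found in a single library were in the T3 library. The downstream side made up 510 of the 600 kb and held 37 of the 46 TRb T3 peaks, and the T3-only share was 57.1% upstream and 56.8% downstream of the gene body. In the region the GFP PTU list had 1 peak, the TRb PTU list 25 and the TRb T3 list 46. The ratio of TRb T3 to TRb PTU peaks was 1.84, against 0.887 for the whole lists. Its exact 95% interval, 1.11 to 3.13, treats peaks as independent counts and covers counting error only. The counts of the TRb1 lists are not independent, because 21 sites were in both. Of the 46 TRb T3 peaks, 25 overlapped no TRb PTU peak by even 1 bp and are termed T3-only (54.3%, exact interval 39.0 to 69.1%), beside 38.7% of all TRb T3 peaks. Of the 25 TRb PTU peaks, 4 overlapped no TRb T3 peak and are termed PTU-only (16.0%, exact interval 4.54 to 36.1%), beside 46.1% of all TRb PTU peaks. The remaining 21 peaks of each list formed 21 shared sites with a single peak on either side. Because the region was selected by these classes, nothing is read from their distance to the whole-list shares.

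**Figure D1:**
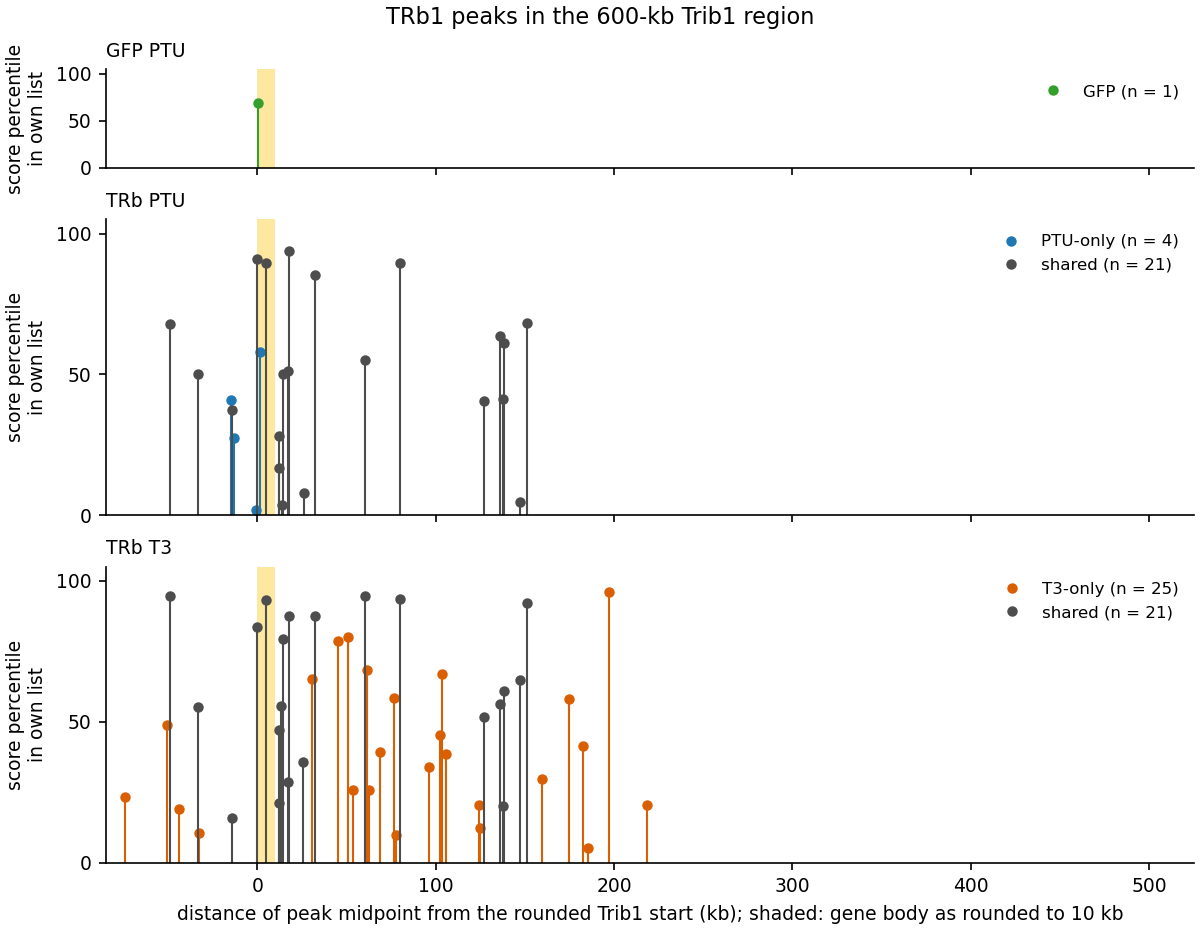
Each line is a peak of the Trib1 region, placed by the distance of its midpoint from the rounded gene start (kb) and as high as its score percentile within its own list, for the GFP PTU, TRb PTU and TRb T3 lists. The 4 PTU-only peaks sit in or upstream of the shaded gene body, while 21 of the 25 T3-only peaks lie downstream of it.

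At the gene itself both lists had high-ranked peaks. A shared site covered the rounded gene start, at 59479564 to 59480351 in TRb PTU (score 91.27) and 59479845 to 59480228 in TRb T3 (score 65.42). The score is the authors' peak caller's value and serves to rank peaks within a list, so it is also given as a percentile: among the 27010 genome-wide sites at which 1 peak of either list met 1 peak of the other, this site stood at percentile 84.3 in TRb PTU and 76.3 in TRb T3. It was thus a high-ranked site in both libraries with a shift of -8.03 percentile points from TRb PTU to TRb T3. The only GFP peak of the region fell inside it, at 59480100 to 59480163 (score 8.77, rank 33 of the 107 GFP peaks). The start site therefore gave signal in livers with no tagged receptor as well, and how much of its TRb1 signal is of this kind was not tested. Genome-wide, 84 TRb PTU and 47 TRb T3 peaks lay on a GFP peak. The second site in the gene body, at 59484431 to 59484764 in TRb PTU (score 83.31) and 59484410 to 59484756 in TRb T3 (score 114.22), had no GFP peak and stood at percentiles 82.0 and 89.9.

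The 4 PTU-only peaks all lay within 15 kb of the rounded gene start. They ran from 59464972 to 59465175 (score 15.52), 59467023 to 59467182 (11.11), 59479174 to 59479405 (4.23) and 59481336 to 59481509 (23.76). They were modest peaks, at percentiles 41.0, 27.4, 1.91 and 57.8 of the TRb PTU list. The gap to the nearest TRb T3 peak was 230, 1406, 439 and 1107 bp in that order. Each of them thus had a TRb T3 peak close by, and with sites counted as shared when midpoints lay within 1 kb, 2 of the 4 stayed PTU-only. Downstream of the gene body there were 0 PTU-only peaks among 16 TRb PTU peaks (exact interval up to 20.6%).

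Upstream of the gene, where the region reaches 80 kb, 4 of the 7 TRb T3 peaks were T3-only (57.1%, exact interval 18.4 to 90.1%). They began at 59405938 (score 11.59), 59429040 (21.51), 59435955 (10.38) and 59447225 (8.16), and all 4 ranked below the median of the TRb T3 list, at percentiles 10.5 to 49.0. The gene body held 0 T3-only peaks. The shared sites upstream were 3, at -48.9, -33.1 and -14.5 kb from the rounded start.

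Downstream, 21 of the 37 TRb T3 peaks were T3-only (56.8%, exact interval 39.5 to 72.9%), and 13 of these 21 ranked below the list median. In the first 50 kb past the gene body TRb T3 had 12 peaks and TRb PTU 8, with 4 T3-only. From 50 to 100 kb the numbers were 11 and 2, with 9 T3-only. From 100 to 150 kb they were 9 and 6, with 3 T3-only. Beyond 150 kb TRb T3 had 5 more peaks, all T3-only, and TRb PTU had 0. The downstream T3-only peaks thus lay 20.8 to 208 kb past the gene body, with 9 of the 21 from 50 to 100 kb. The median distance of all T3-only peaks of the region from the gene body, upstream peaks counted as negative, was 67.7 kb. The last TRb PTU peak lay 141 kb past the gene body and the last TRb T3 peak 208 kb past it, with 6 TRb T3 peaks beyond the last TRb PTU peak.

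**Figure D2:**
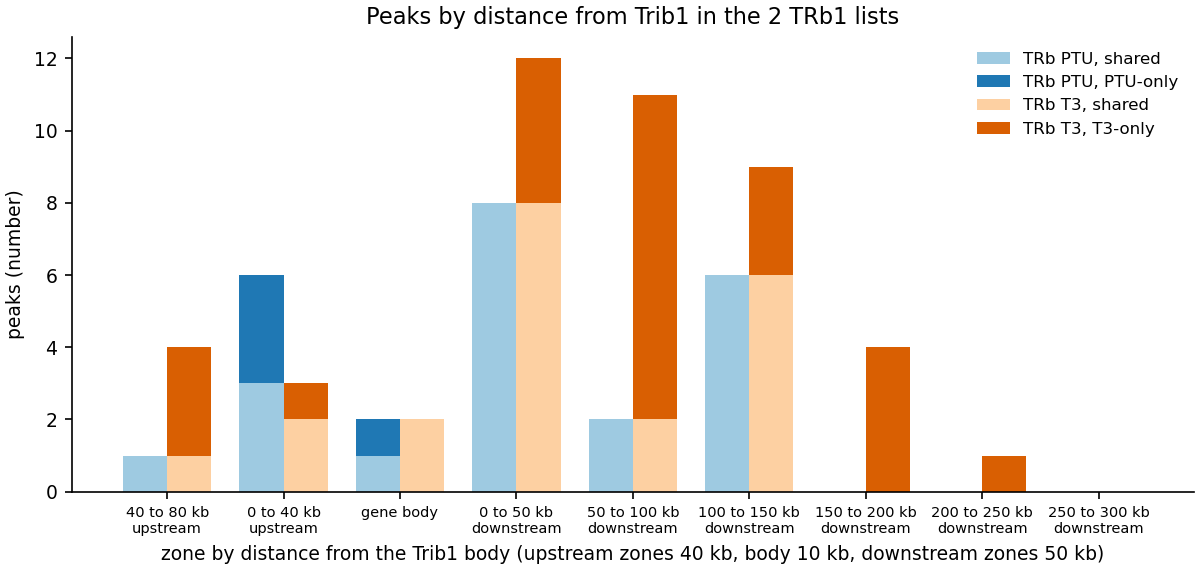
Bars give the number of TRb PTU (left bar) and TRb T3 (right bar) peaks in each zone by distance from the Trib1 body, split into shared and single-list peaks; each peak is placed by its own midpoint, so the start site counts as upstream in TRb PTU and as body in TRb T3. From 50 to 100 kb downstream TRb T3 had 11 peaks, 9 of them T3-only, against 2 in TRb PTU.

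The strongest T3-only site was also the highest-scored TRb T3 peak of the whole region. It ran from 59676609 to 59677283, 187 kb past the gene body, with a score of 144.41 (percentile 96.2 of the TRb T3 list) and a width of 675 bp. The nearest TRb PTU peak was 45313 bp away. In the whole list, 95 of the 17816 T3-only peaks (0.533%) scored as high, and 0.135% were as wide. These are shares of single peaks, while this site was picked as the highest of the 25 T3-only peaks of the region. This site belongs to a far downstream run, by definition a row of T3-only peaks with no shared or TRb PTU peak between them. No GFP peak lay in that run, but the whole GFP list had only 107 peaks. The run began at 59639370 (score 13.43) and went on with peaks at 59654501 (27.68), 59662707 (17.88), 59664930 (6.45), the strong peak and 59698153 (10.78). These are 6 T3-only peaks in a row over 58.8 kb, of which 1 is strong and 4 rank below the list median.

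Nearer to the gene on its downstream side, the T3-only peaks came in 3 further runs and 1 single peak. The single peak began at 59510656 (score 33.79), beside a shared site. A run of 3 began at 59525155 (53.14), 59530380 (56.74) and 59533444 (12.17). Its first and second peaks ranked high in the TRb T3 list, at percentiles 78.6 and 80.2. A run of 5 between the shared sites 50.2 and 69.9 kb past the gene body began at 59541593 (37.34), 59542636 (12.38), 59548583 (16.93), 59556469 (28.05) and 59557461 (7.93). Then came a run of 6 at 59576226 (14.95), 59582497 (19.59), 59583322 (35.56), 59585480 (16.65), 59604257 (10.80) and 59604541 (8.43).

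The share of T3-only peaks in runs was also taken over the genome. A run is a row of T3-only peaks with no shared or TRb PTU peak between them. The region held 17 of its 25 T3-only peaks in runs of at least 5 (68.0%), against 10.8% of T3-only peaks on chromosomes 1 to 19 and X. Runs of at least 6 held 12 (48.0%), against 6.40%. Runs of at least 7 held 0, against 3.90%, and the longest run in the genome had 17. The shares thus depend on the run length set, and the region was selected for its T3-only peaks, which makes runs more likely, so they are descriptions.

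The T3-only peaks of the region scored in much the same range as T3-only peaks elsewhere. Their scores had a median of 16.65 (lowest 6.45, highest 144.41), beside 14.95 for all T3-only peaks. Of the 25, 8 reached the TRb T3 median (32.0%), beside 31.5% of all T3-only peaks. When both lists were limited to scores that reached their median, the region had 11 T3-only peaks among 23 TRb T3 peaks (47.8%, beside 39.9% of all TRb T3 peaks under that filter), of which 8 were T3-only before and 3 had lost a weaker TRb PTU partner to the filter. The shared TRb T3 peaks of the region had a median score of 29.72, beside 30.27 for all shared TRb T3 peaks. T3-only peaks here therefore scored mostly below shared ones, as in the whole list. Only 1 of the 25 lay within 1 kb of a TRb PTU peak. The other 24 (96.0%) were farther away, beside 79.3% of all T3-only peaks on chromosomes 1 to 19 and X. Farther than 20 kb were 8 (32.0%, beside 26.0%), and farther than 45 kb were 2 of 25, beside 14.4% of all. The gap had a median of 8074 bp, beside 5589 bp for all. The region was selected for T3 peaks that the TRb PTU list lacked, which bears on these gaps, so they are descriptions.

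The 21 shared sites let the rank of one and the same site be compared between the lists, again as a description from the same pair of libraries. Ranks were taken among the 27010 single pairs in each list, of which 48.9% ranked higher in TRb T3. In the Trib1 region 14 of 21 did (66.7%, exact interval 43.0 to 85.4%), and this interval includes the genome-wide share. The shift from TRb PTU to TRb T3 ranged from -13.6 to 55.5 percentile points with a median of 8.64. The shifts were lopsided: the 7 sites that ranked lower with T3 shifted by -13.6 to -1.12 points, while 8 of 21 sites (38.1%) gained at least 20 points, beside 21.9% of all pairs. All 8 stood at percentile 50.8 or lower in TRb PTU, where sites have more room to gain than high-ranked ones. Most of the sites that ranked lower with T3 started in that range too. The share of all pairs with losses of at least 20 points was not taken. With 21 sites the difference from all pairs was not tested.

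**Figure D3:**
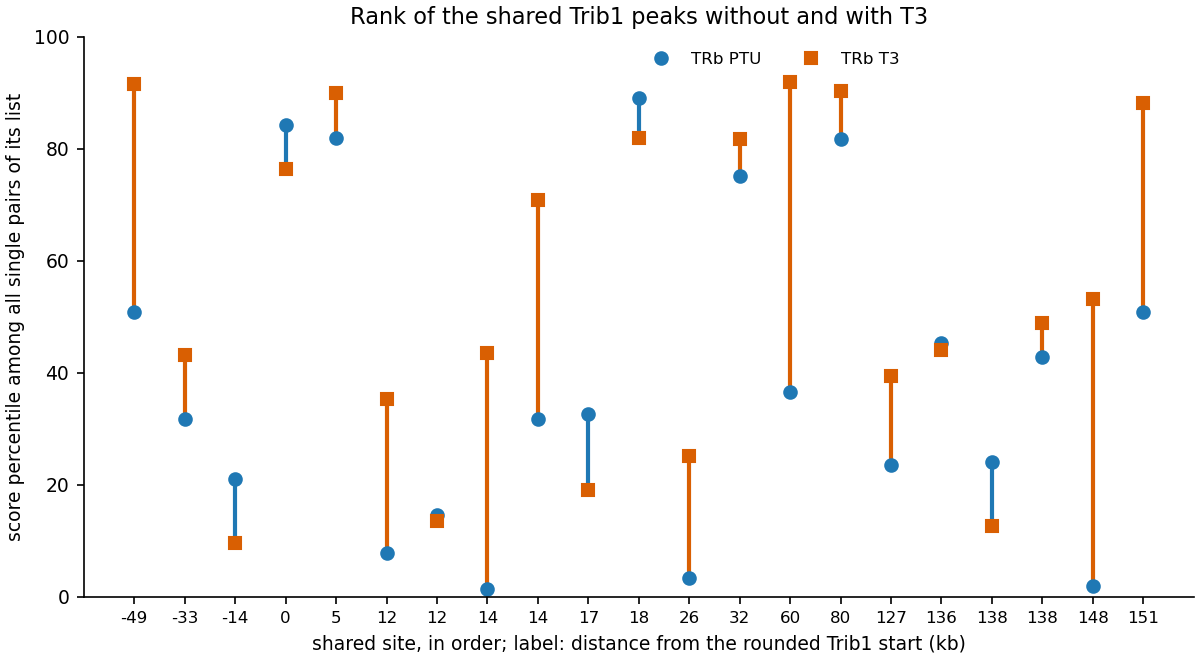
Each vertical line joins the score percentile of a shared site in TRb PTU (circle) and TRb T3 (square) among all single pairs, with sites in order along the chromosome and labelled by distance from the rounded Trib1 start (kb). Of the 21 sites, 14 ranked higher in TRb T3, and the longest lines all point upward.

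The 5 shared sites with the highest TRb T3 scores fell into different kinds. The first, 50.2 kb past the gene body, had scores of 22.23 at 59540070 to 59540237 in TRb PTU and 126.88 at 59540052 to 59540252 in TRb T3. Its percentile went from 36.5 to 92.0, the widest shift of the region. The second, upstream of the gene at -48.9 kb, had 32.58 at 59431031 to 59431247 and 123.92 at 59431024 to 59431271, with percentiles of 50.8 and 91.5. The fifth, 141 kb past the gene body, had 32.61 at 59631095 to 59631295 and 103.83 at 59630949 to 59631366, with percentiles of 50.8 and 88.1. These 3 sites were of middling or lower rank without T3. Their high rank with T3 follows from the choice by TRb T3 score, which also favours upward shifts. The third, 69.9 kb past the gene body at 59559696 to 59560100 in TRb T3 (scores 82.55 and 116.37), and the fourth, the site in the gene body described above, were high in both libraries, with shifts of 8.64 and 7.97 points.

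Some sites with very low scores without T3 ranked far higher with it. A site that low in TRb PTU can hardly shift any way but upward, and equally low sites elsewhere were not examined. The site 137 kb past the gene body scored 5.48 in TRb PTU and 33.42 in TRb T3 (percentiles 1.99 and 53.1). A site 3.53 kb past the gene body scored 4.89 and 25.78 (percentiles 1.43 and 43.6). The latter belongs to a crowd of 6 shared sites within 5.60 kb just past the gene body, which moved in both directions: 3 ranked higher with T3 and 3 lower. In that crowd the strongest site, at 59497368 to 59497596 in TRb PTU (score 111.21) and 59497403 to 59497593 in TRb T3 (79.98), was the highest-scored TRb PTU peak of the region and shifted by -7.11 points with T3. Of the 10 shared sites more than 10 kb past the gene body, 8 ranked higher with T3, beside 48.9% of all single pairs. Their shifts ran from -11.5 to 55.5 points with a median of 12.3, beside a median of 13.2 for the crowd of 6. With so few sites a dependence on distance was not tested.

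Among the 21 shared sites, the TRb T3 peak was the wider one at 12 and the TRb PTU peak at 9. In all pairs the TRb T3 peak was wider in 39.6%. With 21 sites this difference was not tested.

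Set beside other stretches of the same length, the region had one of the larger excesses of T3-only peaks. Of 3523 windows of 600 kb with a TRb1 peak on chromosomes 1 to 19 and X, 7 had a larger excess of T3-only over PTU-only peaks than the 21 of the Trib1 region, and the median window had 0. Among 801 other windows with at least 20 peaks in both lists, the T3-only share had a median of 32.4%, and 29 windows reached the 54.3% of the Trib1 region. The PTU-only share was 16.0% or lower in 10 of them. Both held in 2. The region was selected by these same classes, so its place among the windows is a description.

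The 3 windows nearest in excess lay on chromosome 6 from 53.4 to 54.0 Mb, chromosome 8 from 42.0 to 42.6 Mb and chromosome 4 from 11.4 to 12.0 Mb. They had 24, 28 and 25 T3-only and 2, 8 and 2 PTU-only peaks, and 0 GFP peaks each. The Trib1 region, with 25 and 4, was thus not alone in this pattern. Their shared sites ranked higher in TRb T3 in 3 of 12, 12 of 22 and 7 of 13 pairs, with median shifts of -15.9, 5.50 and 1.76 points, against 14 of 21 and 8.64 points in the Trib1 region. With 1 library per condition these differences were not tested. Among 641 other windows with at least 15 such pairs, the part with the higher rank in TRb T3 had a median of 46.7% and was as high as in the Trib1 region in 48.

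**Figure D4:**
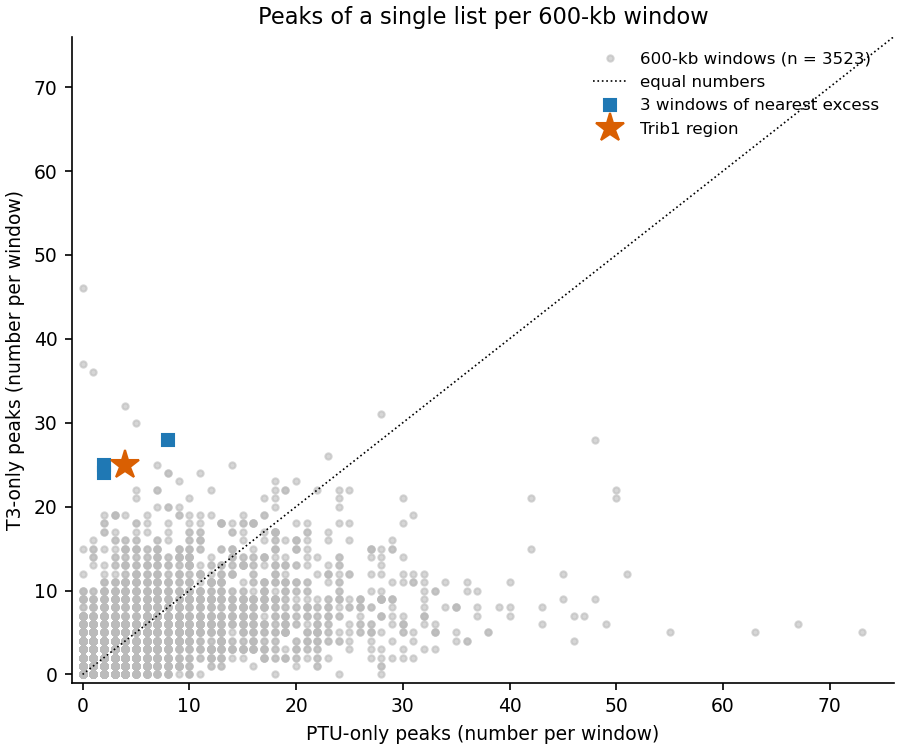
Each grey point is a 600-kb window of chromosomes 1 to 19 and X (n = 3523), by its number of PTU-only peaks (horizontal axis) and T3-only peaks (vertical axis), and the dotted line marks equal numbers. The Trib1 region (star) has 25 T3-only and 4 PTU-only peaks, close to the 3 windows of nearest excess (squares).

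The binding sites ended well before the region did. Past the last TRb T3 peak no list had a peak for 872 kb, so the final 302 kb of the region were empty in all 3 lists. The gap to the next TRb T3 peak, which began at 60624727 (score 6.73), was 927 kb, and 99.1% of gaps between neighbouring TRb T3 peaks in the genome were shorter. For TRb PTU the gap was 939 kb to a peak that began at 60569848 (score 9.40), and again 99.1% of gaps were shorter. Within the region the peaks were crowded, with a median spacing of 4.88 kb in TRb T3 and 3.47 kb in TRb PTU, beside 8.71 and 7.78 kb in the whole lists. Whether reads can be placed uniquely in the empty stretch was not tested.

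The lower edge of the region, in contrast, cut through bound sequence. The first peaks outside it were a shared pair 0.812 kb (TRb T3) and 0.886 kb (TRb PTU) below the edge, with a score of 96.63 at 59398911 to 59399465 in TRb T3 and 13.81 at 59399007 to 59399221 in TRb PTU. The first peak inside was the T3-only peak that began at 59405938. With 100 kb added at both ends, the region had 32 T3-only and still 4 PTU-only peaks.

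The order of genes around Trib1 is known from the RefSeq annotation of GRCm38.p6, whose coordinates do not apply to mm9. Trib1 follows Nsmce2, which encodes a SUMO ligase of the SMC5/6 complex, and the long noncoding RNA gene Gm36677. After Trib1 come 5 genes that code for no protein, the pseudogenes Gm20150, Gm7708 and Gm7713 and the long noncoding RNA genes Gm19510 and Gm36819, before the next protein-coding gene, 4933412E24Rik. Which of the downstream peaks lie in or near these genes was not determined.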

How the data were processed

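ChIP DNA from 3 of 6 samples was analysed; the 3 inputs have no peak list used here. The deposited lists give chromosome, start, end, name and a score per peak. The score is the value that the authors' peak caller gave each peak, and no source used here names the statistic behind it. Bowtie, SAMtools, MACS2 and build mm9 are named, per the submitters' processing notes, without versions, settings, control library or filters. Depth is unknown, so peak numbers also depend on depth and calling thresholds.

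Groups came from sample titles. Region, classes and comparisons were chosen with earlier results of these data known. Peaks were assigned by midpoint, sharing meant an overlap of at least 1 bp, and positions are 1-based. Shares carry exact (Clopper-Pearson) 95% intervals. Percentiles are ranks within a list, or among sites with exactly 1 peak in each list. Windows of 600 kb were counted from each chromosome's start. Named are all single-list peaks of the region, the 5 highest-scored shared sites by TRb T3 score, and the 3 windows nearest in excess; other sites were named after their values were seen. Alternatives changed overlap, score filter, list size, GFP sites and region edges. The code that finds overlaps was checked on made-up peaks. The pathway gene list and sequences were not used, for want of an mm9 annotation here. Python 3.11.15, numpy 2.4.6, pandas 2.3.3, scipy 1.17.1 and matplotlib 3.10.9 were used.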

Additional observations from a re-analysis of the deposited data

How the results depend on the processing

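No paired analysis was possible because there was 1 library per condition. Of 54 alternative values, 45 stayed within 1.5 times the count or within the exact interval of the value reported. The 25 T3-only peaks became 11 with scores at or above the list median in both lists and 8 with that filter on the TRb T3 list alone, where the T3-only share was 34.8% (54.3% before), beside 24.3% of all TRb T3 peaks under the same filter. The 4 PTU-only peaks became 2 with midpoints within 1 kb, 2 with the filter on both lists, 1 with it on the TRb PTU list alone and 0 downstream of the gene body only, where the shared part of TRb PTU peaks was 100% (84.0% before). Pairs ranking higher in TRb T3 went from 66.7 to 90.0% with midpoints within 1 kb, which leaves 10 single pairs of 21. The only TRb1 peaks of the region on a GFP peak were the pair at the shared start site. Leaving them out could not change the 25 T3-only and 4 PTU-only peaks, so those counts are no check. The filter was not applied to one list alone for the ratio and the pairs, which need both. Unknown depth limits every count.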
